A study of Mus musculus with 55 samples.

Results

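Enriched environment (EE) and standard housing (SH) were compared in the ventral dentate gyrus of resilient (RES) mice, that is, mice that kept approaching an unfamiliar CD-1 aggressor after chronic social defeat stress (CSDS). The groups were 9 EE RES and 7 SH RES mice, assigned by their labels of housing and phenotype, of 54 mice in 6 groups. All were male C57BL/6J mice with no genetic alteration, placed after weaning either in SH, in small groups in plain cages, or in EE, in larger groups with tunnels, objects and running wheels, and all 16 were then defeated repeatedly by larger CD-1 mice. The other 38 mice, used here to estimate the spread and to set the housing effect beside that of other mice, were 10 SH and 9 EE control mice left undefeated and 10 SH and 9 EE susceptible (SUS) mice, which avoided the aggressor after defeat. RES and SUS are classes drawn from 1 social interaction test, EE joined larger social groups with physical enrichment so that these components cannot be told apart, and each library came from the tissue of a single mouse. The reverse-strand counts per library ran from 18273321 to 23306953 in SH RES mice and from 19137287 to 24426804 in EE RES mice.

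The dentate gyrus is the entry of the hippocampal circuit. Its granule cells receive cortical input and contact CA3 pyramidal cells and mossy cells, and new granule cells are added in adult life. Its ventral part is linked to anxiety and to stress responses, and voluntary running and enrichment are known in mice to raise adult neurogenesis. Corticosterone, the stress hormone of rodents, acts there through the glucocorticoid receptor (Nr3c1) and the mineralocorticoid receptor (Nr3c2).

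The tissue label was checked against marker genes. All 14 granule cell markers were detected, among them Prox1, the transcription factor that defines granule cells, at 133 to 176 CPM (counts of a gene relative to the library's total) in SH RES mice and 96.5 to 156 CPM in EE RES mice. Markers of neighboring tissue were present as well. The 12 CA3 and CA2 markers summed to 1043 to 1298 CPM in SH RES mice and 1214 to 1768 CPM in EE RES mice, with Chgb the most abundant. Transthyretin (Ttr), which marks the epithelium of the choroid plexus, stood at 1.94 CPM or below in every SH RES mouse and at 264 CPM in EE RES mouse 3 and 56.0 CPM in EE RES mouse 8, against 1.602 CPM or below in the other 7 EE RES mice. The choroid list held 14 genes, of which Kcne2, Slc4a5 and Tmem72 were too low to be tested.

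Single libraries stood apart in these markers. The mean z-score of the granule cell markers, taken per gene over the 54 mice, lay between 0.19 and 0.73 in the 7 SH RES mice and between -1.77 and 0.62 in the 9 EE RES mice. It was lowest in EE RES mice 8 (-1.77), 3 (-1.71), 1 (-0.99) and 6 (-0.70). EE RES mice 3, 8 and 6 also had the highest oligodendrocyte scores, at 1.42, 1.24 and 1.04, while every SH RES mouse was at -0.39 or below. The plot of marker scores per mouse shows this mirror pattern. Thalamus markers were highest in EE RES mouse 6 (1.96), then in SH RES mouse 4 (1.05) and EE RES mouse 8 (0.72). Fewer cells of a type and less RNA per cell cannot be told apart in bulk tissue, and the part of this difference in the gene results below was not tested, so counts are also given without EE RES mice 3, 6 and 8, an alternative chosen after their scores were seen. For the marker lists behind these scores, a smaller difference in that fit was partly built in by the choice.

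**Figure D1:**
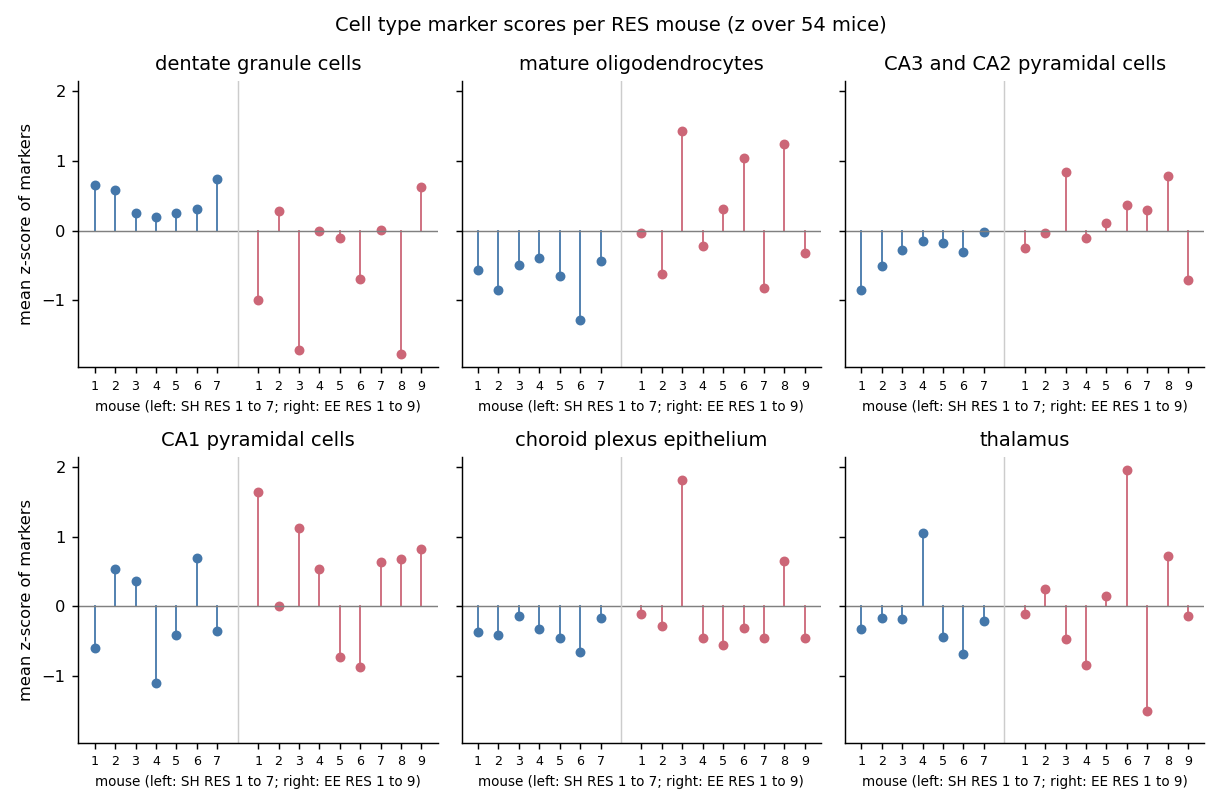
Mean z-score (y axis, z over 54 mice) of the markers of 6 cell types or regions in each RES mouse (x axis), with SH RES mice 1 to 7 in blue and EE RES mice 1 to 9 in red. Granule cell scores are above 0 in all 7 SH RES mice and reach -1.77 in EE RES mouse 8, and the 3 highest oligodendrocyte scores, all above 1, are those of EE RES mice 3, 6 and 8.

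Of the 18283 genes tested, 50 differed between EE RES and SH RES mice at an adjusted p below 0.05 (edgeR, Benjamini-Hochberg), a share of 0.273%, of which 20 were higher and 30 lower in EE. These changes were small. The size of the log2 fold change had a median of 0.39 over the 50 genes, with the smallest 0.13 and the largest 1.37, and the median log2 fold change of all genes was 0.0049. At the study's criterion, an unadjusted limma-voom p below 0.05 with a fold change above 1.3, there were 593 differentially expressed genes (DEGs), 353 higher (1.93% of the genes tested) and 240 lower (1.31%). At an unadjusted edgeR p below 0.05, 1516 genes (8.29%) were higher and 1418 (7.76%) lower in EE. The groups did not overlap in CPM, with every EE RES mouse above or every EE RES mouse below all SH RES mice, for 14 genes that were higher (0.0766%) and 17 that were lower (0.093%).

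The number at an adjusted p below 0.05 rested on single mice. It was 0 when SH RES mouse 1 was left out (2214 genes at an unadjusted edgeR p below 0.05) and 0 when EE RES mouse 8 was left out (2448 genes). It was 8 to 29 on leaving out SH RES mouse 2, 5, 6 or 7, and 2, 15 and 3 on leaving out EE RES mouse 1, 2 or 3. Leaving out EE RES mouse 6 or 9 raised it to 124 and 292. SH RES mouse 1 had the highest share of read pairs in no annotated exon (28.8%) of the 16 mice. When EE RES mice 3, 6 and 8 were left out it was 1, with the granule cell and oligodendrocyte scores as covariates 1, and with the CA1 and CA3 scores as covariates 0. All 50 genes kept their sign and an unadjusted p below 0.05 under each of the 31 alternatives, and their fold changes without EE RES mice 3, 6 and 8 had a median of 0.865 times the original size on the log2 scale. This median was 0.764 with the CA1 and CA3 scores as covariates and 0.725 with the granule cell and oligodendrocyte scores. The count of DEGs moved less, from 446 to 766 over the mice left out in turn, and was 677 without EE RES mice 3, 6 and 8. With no filter on low counts it was 1300, of which 625 were higher and 675 lower, so that the excess of higher DEGs turned.

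**Figure D2:**
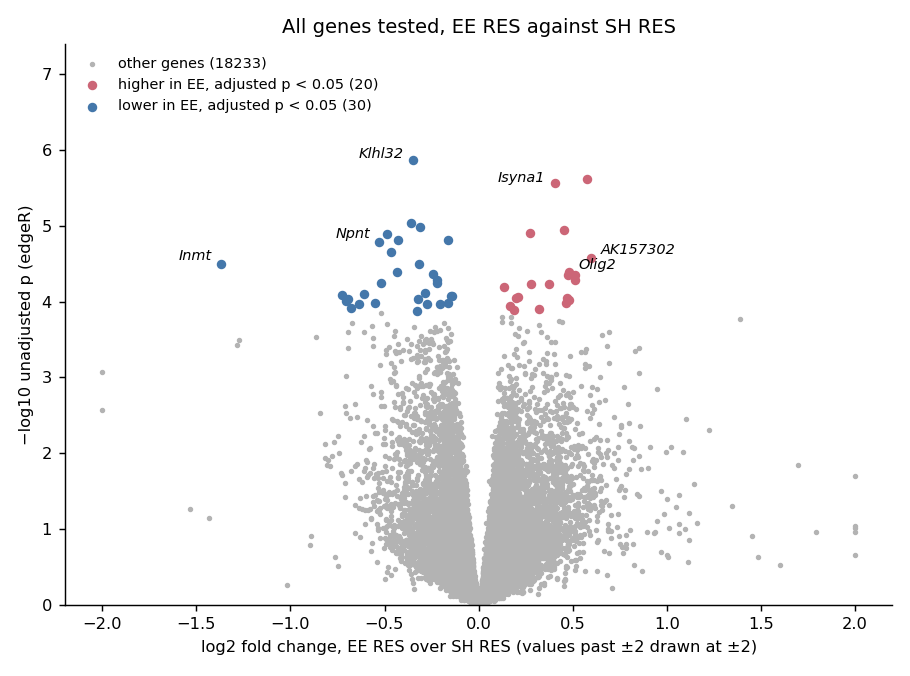
Log2 fold change of EE RES over SH RES mice (x axis) against the −log10 unadjusted p of edgeR (y axis) for 18283 genes, values past ±2 drawn at ±2, with the 50 genes at an adjusted p below 0.05 in color, 20 higher (red) and 30 lower (blue) in EE. Klhl32 has the smallest p, and Inmt, at -1.37, is the farthest from 0 of the colored genes.

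The gene with the smallest p was Klhl32 (chr4:24612554-24851124 in GRCm38), of the kelch-like family, whose members act as adaptors of ubiquitin ligases. Klhl32 ranged from 40.9 to 50.3 CPM in SH RES mice, with a median of 42.9, and from 27.8 to 37.2 CPM in EE RES mice, with a median of 35.5. All 9 EE RES mice were below all 7 SH RES mice, and the log2 fold change was -0.35 ± 0.064 (SE), with an adjusted p of 0.0168 in edgeR. Isyna1 (chr8:70594373-70597290), which encodes the rate-limiting enzyme of inositol synthesis, moved the other way. Isyna1 ranged from 13.2 to 14.8 CPM in SH RES mice, with a median of 14.05, and from 15.4 to 22.4 CPM in EE RES mice, with a median of 18.3. Again the groups were apart, at a log2 fold change of 0.40 ± 0.077 and an edgeR adjusted p of 0.0168. The SH RES mice were close together for Isyna1, and the EE RES mice were spread more widely.

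Adgrb3 (chr1:25067476-25829707), an adhesion receptor that binds C1q-like proteins at synapses, was at 235.3 to 270.2 CPM in SH RES mice (median 251) and 217 to 234.9 CPM in EE RES mice (median 222), without overlap (log2 fold change -0.16 ± 0.034, edgeR adjusted p = 0.0268). Npnt (chr3:132881745-132950291), which encodes the integrin ligand nephronectin and is a granule cell marker, had medians of 48.7 CPM in SH (38.4 to 51.5) and 32.2 CPM in EE (25.6 to 41.9), with 8 of 9 EE RES mice below every SH RES mouse and a log2 fold change of -0.53 ± 0.11. The cadherins Cdh13 (-0.31 ± 0.069) and Cdhr1 (-0.44 ± 0.10) and the clustered protocadherin Pcdhb7 (-0.36 ± 0.074) were lower on the same log2 scale.

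Marcksl1 (chr4:129513581-129515985), a relative of the actin-binding protein MARCKS, was also lower with no overlap. Marcksl1 ranged from 82.2 to 95.7 CPM in SH RES mice, with a median of 93.6, and from 49.2 to 74.96 CPM in EE RES mice, with a median of 71.2 (log2 fold change -0.43 ± 0.091, edgeR adjusted p = 0.0268). EE RES mouse 8 had the lowest value. Nrep, named for its expression in regenerating neurons, had a log2 fold change of -0.49 ± 0.10, with 110.4 CPM in SH RES mouse 5 and 42.6 CPM in EE RES mouse 8 as the extremes. Rogdi, a gene mutated in a syndrome of epilepsy and enamel defects, had a log2 fold change of -0.31 ± 0.064. Inmt, which encodes a methyltransferase of indole amines, showed the largest fold among the 50 genes (-1.37 ± 0.30) at levels of 0.132 to 1.21 CPM, which were between 3 and 28 read pairs per library.

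Among the genes that were higher in EE, Olig2 (chr16:91225457-91228677), the transcription factor of the oligodendrocyte lineage, ranged from 6.12 to 9.95 CPM in SH RES mice (median 9.15) and from 10.3 to 16.5 CPM in EE RES mice (median 11.3). Every EE RES mouse was above every SH RES mouse, at a log2 fold change of 0.48 ± 0.11 and an edgeR adjusted p of 0.0407. Gripap1 on the X chromosome (chrX:7789765-7820567), which takes part in the recycling of AMPA receptors, also had groups that did not overlap although its change was small (0.13 ± 0.031). P4ha2 (0.45 ± 0.093), an enzyme of collagen maturation, and Kank1 (0.27 ± 0.057), an adaptor between adhesion sites and the cytoskeleton, were higher in 8 and 7 of 9 EE RES mice than in any SH RES mouse.

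For the remaining 5 leading genes that were higher the groups overlapped. Hspa4l, of the heat shock protein 110 family, had a log2 fold change of 0.28 ± 0.064, and Dnajb2, a co-chaperone of neurons, of 0.21 ± 0.049. Camk1, a calcium- and calmodulin-dependent kinase, was higher by 0.20 ± 0.047, and Sel1l3 and AK157302 by 0.37 ± 0.086 and 0.60 ± 0.13. The edgeR adjusted p of these 5 genes lay between 0.0372 and 0.0442. Of the 50 genes, 43 were protein coding.

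**Figure D3:**
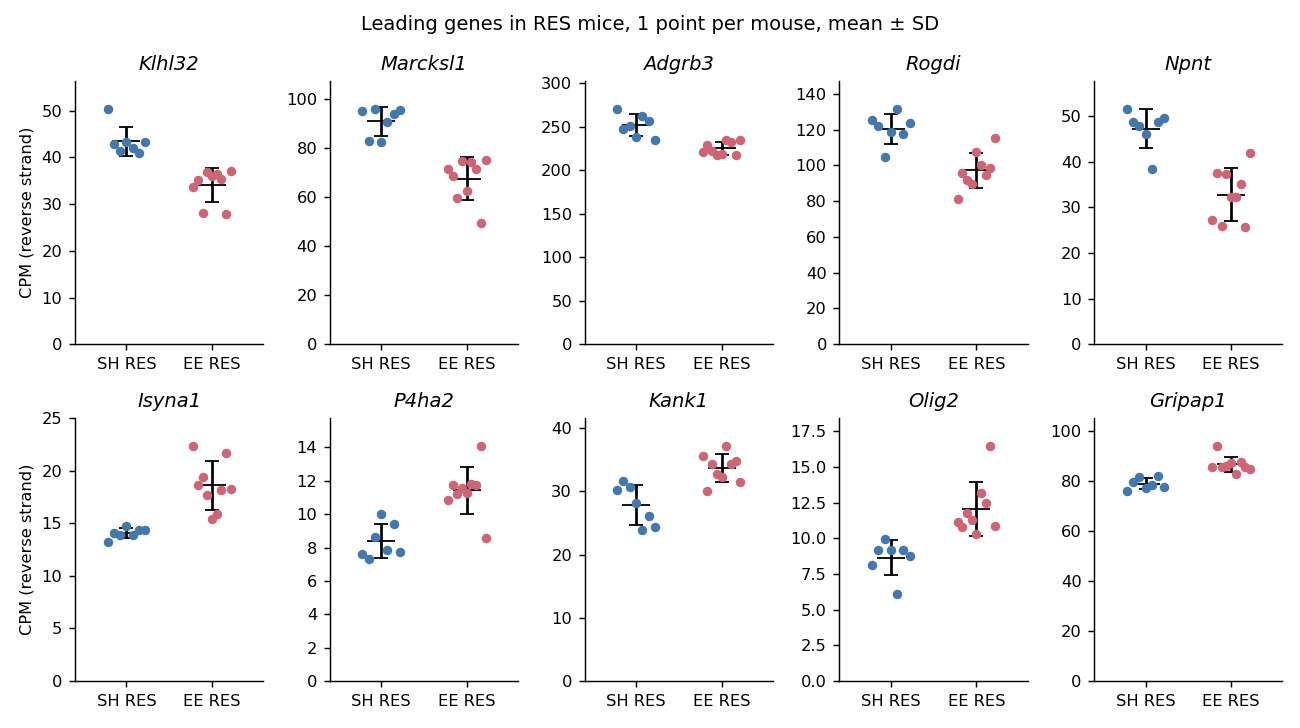
CPM of 10 leading genes (y axes, from 0) in 7 SH RES (blue) and 9 EE RES mice (red), 1 point per mouse, with the mean and SD in black. The upper row shows genes that were lower in EE and the lower row genes that were higher, and Klhl32, Marcksl1, Adgrb3, Isyna1, Olig2 and Gripap1 have no overlap between the groups.

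The question whether these housing effects were those of RES mice in particular was addressed with the difference between the housing effect (EE against SH) in RES mice and that in control or SUS mice, which share no mice. Neither difference gave a gene at an adjusted p below 0.05 in edgeR, limma-voom or DESeq2. At an unadjusted edgeR p below 0.05 there were 1480 genes (8.09%) for RES minus control and 884 (4.84%) for RES minus SUS, and the smallest adjusted p was 0.571 and 0.213. For comparison, EE against SH gave 1 gene at an adjusted p below 0.05 in control mice (Penk, higher in EE) and 1 in SUS mice, and 917 (5.02%) and 1346 (7.36%) genes at an unadjusted p below 0.05.

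The 50 genes chosen in RES mice had the same sign in control mice in 44 cases and in SUS mice in 46 cases, beside 54.2% and 63.4% of all genes. In control mice 5 of them, and in SUS mice 17, passed an unadjusted p below 0.05, each in the same direction. The effect in RES mice was the larger in all 50 genes in both comparisons, a property that their choice in RES mice favors and that is given as a description only. Inmt had a log2 fold change of -0.86 ± 0.26 in SUS mice and -0.084 ± 0.25 in control mice, and Isyna1 of 0.19 ± 0.070 and 0.045 ± 0.069. Klhl32 had -0.018 ± 0.059 in SUS and -0.062 ± 0.059 in control mice, and Nrep -0.0050 ± 0.093 and 0.0059 ± 0.093, which is close to 0 in both.

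**Figure D4:**
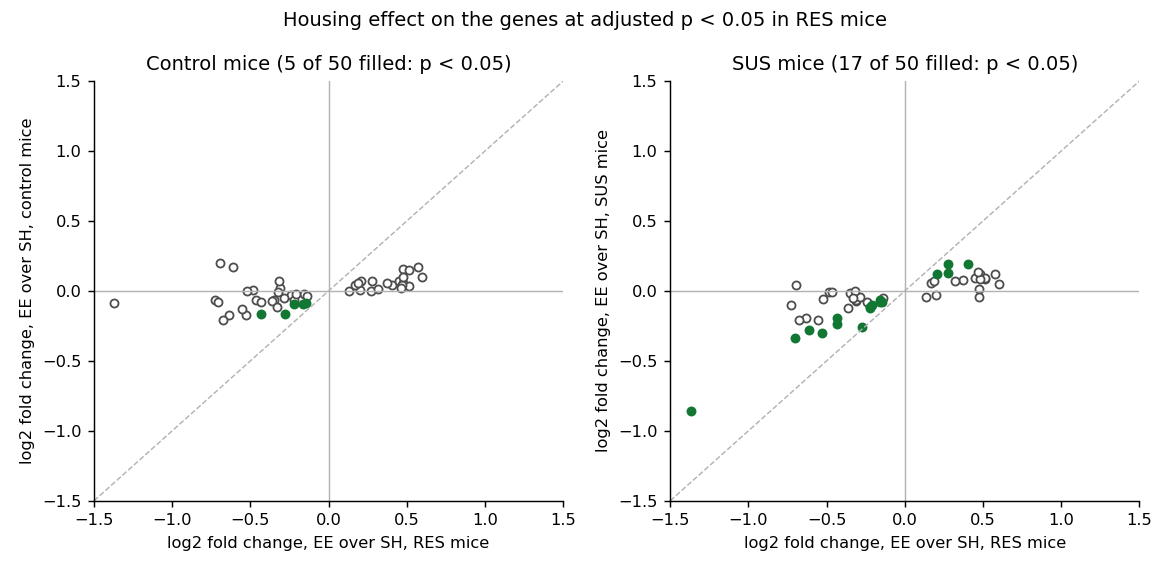
Log2 fold change of EE over SH in RES mice (x axes) against that in control mice (left y axis) and in SUS mice (right y axis) for the 50 genes at an adjusted p below 0.05 in RES mice, filled where the unadjusted p in control (5 genes) or SUS mice (17 genes) was below 0.05. Every point lies nearer to 0 on the y axis than on the x axis, and the dashed line marks equal values.

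The genes with the smallest p for RES minus control were Fbxo45, which encodes a ubiquitin ligase subunit of synapses, Cdh13 and Gm5087. The log2 fold change of Fbxo45 was 0.19 in RES and -0.086 in control mice, a difference of 0.28 ± 0.067, and that of Cdh13 was -0.31 and 0.073, a difference of -0.39 ± 0.094. For RES minus SUS they were Gripap1 and the pseudogenes Gm9105 and Phf20-ps. Gm9105 had a log2 fold change of 0.83 in RES and -0.63 in SUS mice at levels of 1.004 CPM or below in RES mice. None of these differences passed the adjustment over all genes.

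Most granule cell markers were lower in EE RES than in SH RES mice. Of 14 genes, 9 were lower and 1 higher at an unadjusted edgeR p below 0.05, beside 7.76% and 8.29% of all genes, and the median log2 fold change of the list was -0.31. Besides Npnt these were, among others, Tdo2 (-0.44 ± 0.13), which encodes tryptophan dioxygenase, the transcription factor Rfx3 (-0.34 ± 0.11) and Prox1 (-0.31 ± 0.12). The exception was Penk, the precursor of enkephalins, which was higher. Penk ranged from 11.8 to 20.96 CPM in SH RES mice, with a median of 14.7, and from 15.7 to 23.6 CPM in EE RES mice, with a median of 19.6, at a log2 fold change of 0.39 ± 0.11. In the other mice EE also had higher Penk, by 0.72 ± 0.10 in control mice, where it was the gene that passed the adjustment (edgeR adjusted p = 4.57e-05), and by 0.51 ± 0.10 in SUS mice. When EE RES mice 3, 6 and 8 were left out, the list had 3 lower genes and 1 higher gene, with a median of -0.18, and with the CA1 and CA3 scores as covariates 2 lower genes and 1 higher gene, with a median of -0.105.

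Genes of newborn neurons gave no common direction. In the list of immature granule neurons 2 of 14 genes were higher and 3 lower, with a median of 0.0093, again beside 8.29% and 7.76% of all genes, and in the fit without EE RES mice 3, 6 and 8 there were 1 and 0. Neurod1 (-0.19 ± 0.081) and Sox11 (-0.19 ± 0.090), transcription factors of young neurons, and Eomes (-0.50 ± 0.24), which marks intermediate progenitors, were lower, and Fxyd7, which encodes a regulator of the sodium pump, was higher (0.55 ± 0.15). Doublecortin (Dcx), the usual marker of newborn neurons, did not pass, with medians of 16.5 CPM in SH and 14.8 CPM in EE RES mice and overlapping groups (log2 fold change -0.14 ± 0.077). Of 14 tested genes of progenitors and proliferation, 1 was higher (Lpar1, 0.29 ± 0.13) and 0 were lower, and without those 3 mice 2 were higher and 0 lower.

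All 16 markers of mature oligodendrocytes had a positive log2 fold change, with a median of 0.34, and 10 passed, beside 8.29% of all genes that passed as higher. They included the myelin genes Mag (0.42 ± 0.16) and Mbp (0.34 ± 0.14) and the cytoskeletal gene Ermn (0.44 ± 0.17). Mag ranged from 42.7 to 55.5 CPM in SH RES mice, with a median of 46.0, and from 46.2 to 87.2 CPM in EE RES mice, with a median of 57.2. The groups overlapped, and the summed level of the 16 genes was highest in EE RES mice 3, 8 and 6, at 2486, 2340 and 2277 CPM, against 1217 to 1561 CPM in SH RES mice. Without these 3 mice none of the 16 genes passed and the median was 0.13. These mice stood out by a score made of the same 16 genes, so a fall was built into that choice and tests nothing further. The number that passed was 5, 5, 6 and 5 when EE RES mouse 3, 6 or 8 or SH RES mouse 6 alone was left out. With the CA1 and CA3 scores as covariates 0 passed, with a median of 0.15. In SUS mice the list had a median of 0.31 with 11 genes higher in EE, and in control mice 0.082 with 0 genes, beside 7.36% and 5.02% of all genes that passed in either direction.

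Among 14 markers of oligodendrocyte precursors 3 were higher and 0 lower, with a median of 0.10, beside 8.29% and 7.76% of all genes. The count was 1 higher and 1 lower, with a median of 0.066, when EE RES mice 3, 6 and 8 were left out. The 3 genes that were higher with all mice were Olig2, its relative Olig1 (0.16 ± 0.065) and Bcas1 (0.33 ± 0.13), which is expressed as precursors begin to make myelin. Without EE RES mice 3, 6 and 8 the log2 fold change of Olig2 was 0.36, with an unadjusted edgeR p of 0.00211 and an adjusted p of 0.177. Mir219a-2, a miRNA gene of the oligodendrocyte lineage that was picked here after its value was seen, was higher in EE RES mice (1.39 ± 0.34, edgeR adjusted p = 0.058). It was at 0.0431 to 0.291 CPM in SH and 0.146 to 0.56 CPM in EE RES mice, that is, 1 to 12 read pairs per library, and 7 of 9 EE RES mice were above all SH RES mice. Counts per gene from total RNA do not measure the mature miRNA. Its mature product is shown to identify it, with the seed, bases 2 to 8, in capitals, as RefSeq gives it for chr2:29845689-29845709 on the minus strand of GRCm38.p6:
mmu-miR-219a-5p: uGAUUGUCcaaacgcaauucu

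Of 12 CA3 and CA2 markers 6 passed as higher and 1 as lower, with a median of 0.18, where 8.29% and 7.76% of all genes did so. The member with the largest change was Cpne7, a calcium-dependent phospholipid-binding protein. Cpne7 ranged from 107 to 225 CPM in SH RES mice, with a median of 142, and from 154 to 325 CPM in EE RES mice, with a median of 239 (log2 fold change 0.61 ± 0.19). The groups overlapped, and the highest levels were those of EE RES mice 3 and 8. The kainate receptor gene Grik4 (0.19 ± 0.073) and Socs2 (0.32 ± 0.13) were also higher, while Rgs14, a regulator of G protein signaling enriched in CA2, was lower in every EE RES mouse than in any SH RES mouse (-0.28 ± 0.072). Without EE RES mice 3, 6 and 8 the list had 1 higher and 1 lower gene, with a median of 0.076, and without EE RES mouse 8 alone it had 3 higher. The CA1 and CA3 scores as covariates also left 1 higher and 1 lower, with a median of 0.049. The CA3 score is made of these same genes, so that fall was fixed by the covariate and tests nothing. Of 9 tested CA1 markers 1 passed (Gpr161, 0.47 ± 0.21), with a median of 0.25, and 1 passed without EE RES mice 3, 6 and 8 as well. Without SH RES mouse 1 alone 0 CA1 markers passed. With the granule cell and oligodendrocyte scores as covariates 0 passed as well, with a median of 0.030.

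Counts for markers of other cell types are read beside the 8.29% of all genes that were higher and 7.76% that were lower. None of 16 microglia markers passed, with a median of -0.0093, and the same 16 genes gave 0 in the fit without EE RES mice 3, 6 and 8. Among 14 astrocyte markers 1 was higher and 2 were lower, among 16 markers of endothelial cells and pericytes 2 were higher, and among 16 interneuron markers 2 were higher, for example the cannabinoid receptor Cnr1 (0.18 ± 0.066). Of 12 mossy cell markers 2 were higher and 1 lower, of 14 meningeal markers 2 were higher, and of 10 red cell markers and the 2 tested neutrophil markers 0 passed. In the fit that left out EE RES mice 3, 6 and 8 the counts were 1 higher and 2 lower for astrocytes, 0 for endothelial cells and pericytes, 1 higher for interneurons, 1 higher for mossy cells, 3 higher for meninges and 1 lower for red cells. Choroid plexus genes passed in 1 of 11 cases, Ttr, with a log2 fold change of 6.42 ± 2.67 and high values in EE RES mice 3 and 8 alone. Of 14 thalamus genes 1 passed, with a median of 0.20 that became -0.145 without EE RES mice 3, 6 and 8. In that fit 0 choroid plexus, 0 thalamus and 0 neutrophil genes passed.

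**Figure D5:**
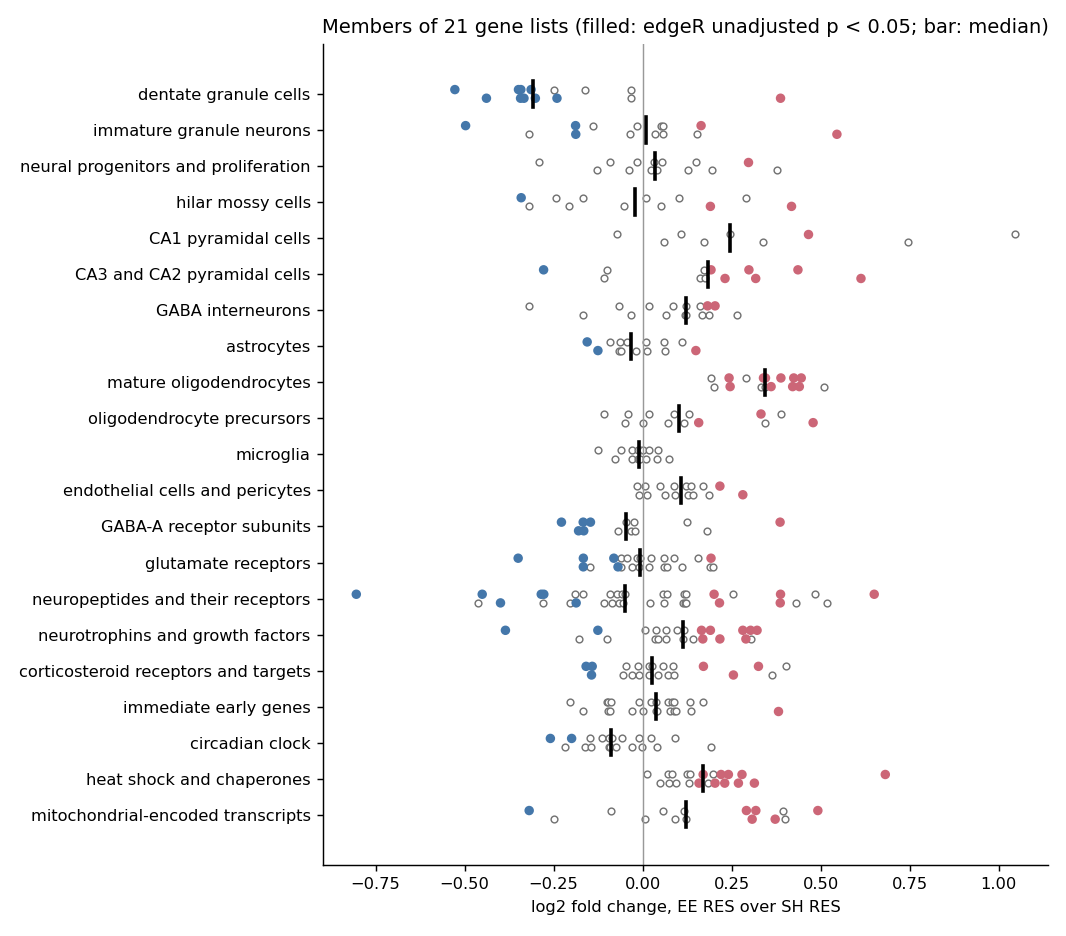
Log2 fold change of EE RES over SH RES mice (x axis) for each tested member of 21 gene lists (y axis), filled in red (higher) or blue (lower) where the unadjusted edgeR p was below 0.05, with the median of each list as a black bar. Granule cell markers lie below 0 apart from Penk, and all members of the oligodendrocyte and heat shock lists lie above 0.

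Of 13 tested subunits of GABA-A receptors, the main inhibitory receptors, 5 were lower in EE RES mice and 1 was higher, with a median of -0.048. Of all genes, 7.76% were lower and 8.29% higher. The lower subunits included Gabrb2 (-0.17 ± 0.059) and Gabra4 (-0.17 ± 0.069). Gabrb2 ranged from 247 to 336 CPM in SH RES mice, with a median of 275, and from 221 to 282 CPM in EE RES mice, with a median of 252, and the groups overlapped. Without EE RES mice 3, 6 and 8, 3 subunits were lower and 0 higher, and without SH RES mouse 5 alone 3 were lower. Of 24 glutamate receptor genes 5 were lower and 1 higher, with Grik2 (-0.17 ± 0.055), Grm3 (-0.17 ± 0.062) and the presynaptic receptor Grm2 (-0.35 ± 0.13) below and Grik4 above SH, and without EE RES mice 3, 6 and 8 there were 4 lower and 0 higher. The glutamate receptor list had 3 lower and 0 higher genes with the CA1 and CA3 scores as covariates and 1 lower and 0 higher with the granule cell and oligodendrocyte scores, and the GABA-A list had 2 lower and 0 higher with either pair. Genes of vesicle release were more often higher, 7 against 2 of 26, with Sv2b (0.46 ± 0.15) above and Sv2c (-0.36 ± 0.13) below SH, but without EE RES mice 3, 6 and 8 there were 0 higher and 2 lower, and the median of 0.081 became -0.027. With the CA1 and CA3 scores there were 1 higher and 0 lower, and with the granule cell and oligodendrocyte scores 0 higher and 1 lower. Leaving out SH RES mouse 1, 2 or 3 or EE RES mouse 1, 3, 6 or 8 alone left 3 or 4 higher.

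Ligands and receptors for peptides were mixed, with 5 of 37 tested genes higher and 6 lower, beside 8.29% and 7.76% of all genes. There were 4 higher and 4 lower without EE RES mice 3, 6 and 8, and 3 higher on leaving out SH RES mouse 1, 2 or 7 or EE RES mouse 4, 7 or 8. Besides Penk the higher genes included the delta opioid receptor Oprd1 (0.39 ± 0.11), to which enkephalins bind, whereas Pdyn, the precursor of dynorphins, was lower. Pdyn ranged from 25.01 to 32.6 CPM in SH RES mice, with a median of 29.8, and from 16.4 to 29.1 CPM in EE RES mice, with a median of 23.9, with a log2 fold change of -0.40 ± 0.12. The Pdyn ranges overlapped. Vipr1, a receptor for vasoactive intestinal peptide, was lower as well (-0.28 ± 0.087). The monoamine receptor list had 2 higher and 3 lower of 21 genes, among them Htr1a, the serotonin 1A receptor (-0.23 ± 0.082), Htr7 (0.31 ± 0.14) and Drd2 (-0.34 ± 0.16), and 1 higher and 1 lower when the same 3 mice were left out. Without EE RES mouse 8 alone, 0 monoamine receptors were higher and 1 lower, and without SH RES mouse 1 alone 0 higher and 2 lower. The CA1 and CA3 scores as covariates left 4 peptide genes higher and 6 lower and 0 monoamine receptors, and the granule cell and oligodendrocyte scores 4 and 3 peptide genes and 1 and 1 monoamine receptors.

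Growth factor genes were higher in 8 and lower in 2 of 23 cases, with a median of 0.11, against 8.29% and 7.76% of all genes. The higher genes included the sortilin receptors Sort1 (0.17 ± 0.056) and Sorcs3 (0.29 ± 0.10) and the fibroblast growth factor gene Fgf1 (0.19 ± 0.069). Ntf3, which encodes neurotrophin 3, was lower. Ntf3 ranged from 12.5 to 16.6 CPM in SH RES mice, with a median of 13.8, and from 6.40 to 14.6 CPM in EE RES mice, with a median of 10.5, at a log2 fold change of -0.39 ± 0.13. The ranges overlapped. Bdnf, often studied in enrichment and stress, had medians of 67.8 CPM in SH and 61.3 CPM in EE RES mice and did not pass (-0.18 ± 0.090). With 6 EE RES mice (3, 6 and 8 left out), 3 growth factor genes were higher and 1 was lower, with a median of 0.044, and without SH RES mouse 5 alone 5 were higher. The counts were 4 higher and 0 lower with the CA1 and CA3 scores as covariates and 2 higher and 0 lower with the granule cell and oligodendrocyte scores.

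Both corticosteroid receptors were lower in EE RES mice. Nr3c1 ranged from 136 to 161 CPM in SH RES mice, with a median of 143, and from 117 to 138 CPM in EE RES mice, with a median of 134, at a log2 fold change of -0.14 ± 0.042. In 7 of 9 EE RES mice Nr3c1 was below all SH RES mice. The mineralocorticoid receptor gene Nr3c2 had -0.14 ± 0.045 in RES mice and also -0.17 ± 0.041 in control and -0.14 ± 0.041 in SUS mice, whereas Nr3c1 had -0.065 ± 0.038 and 0.058 ± 0.038. Of the 21 genes of the list, receptors and genes known to respond to glucocorticoids, 3 were higher and 3 lower, with a median of 0.026, beside 8.29% and 7.76% of all genes. The list had 0 higher and 2 lower genes, with a median of 0.018, in the fit without EE RES mice 3, 6 and 8. The responsive genes Ddit4 (-0.16 ± 0.071) and Sult1a1 (0.25 ± 0.11) went in opposite directions. Of 24 immediate early genes, which respond to neuronal activity, 1 was higher (Fosb, 0.38 ± 0.15) and 0 were lower, and of 20 clock genes 2 were lower, Per3 (-0.20 ± 0.078) and Dbp (-0.26 ± 0.12), and 0 higher. Leaving out those 3 mice gave 1 higher and 0 lower immediate early genes and 0 higher clock genes and 1 lower. Without SH RES mouse 1 alone, 0 immediate early genes were higher and 0 lower.

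All 21 heat shock and chaperone genes had a positive log2 fold change in RES mice, with a median of 0.17, and 10 passed, beside 8.29% of all genes that were higher in RES mice. Housing gave medians of 0.16 with 12 higher genes in control mice and 0.12 with 8 higher genes in SUS mice, where 5.02% and 7.36% of all genes passed in either direction. In the fit without EE RES mice 3, 6 and 8 the list had 13 higher genes and a median of 0.19. The count fell to 5 with the share of read pairs in no exon as a covariate, to 5 with the granule cell and oligodendrocyte scores and to 4 with the CA1 and CA3 scores. It was 5 without SH RES mouse 1, 6 without SH RES mouse 3, EE RES mouse 7 or EE RES mouse 8, and 16 without EE RES mouse 6. Hspb1, a small heat shock protein, changed most. Hspb1 ranged from 1.70 to 2.37 CPM in SH RES mice, with a median of 1.90, and from 1.75 to 4.89 CPM in EE RES mice, with a median of 3.19, with 8 of 9 EE RES mice above all SH RES mice (log2 fold change 0.68 ± 0.18). Hspa1a (0.24 ± 0.085) and Hspa1b (0.27 ± 0.10) are near-identical copies whose reads cannot be assigned with certainty, and Hsp90aa1, the inducible form of heat shock protein 90, had 0.20 ± 0.076.

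Since these genes shared a direction, the 300 bases around their start sites in RefSeq (GRCm38.p6, 250 before and 50 after the start) were searched for a pair of inverted heat shock units, written GAANNTTC or TTCNNGAA. Both patterns read the same on either strand, and they can share bases where units follow each other. A match was found for 9 of 16 list genes with a promoter in the table, and for 4 of the 9 with a promoter among those that passed, while 17.0% of all 27025 genes in the table had a match in at least 1 promoter. Since heat shock genes were searched for heat shock units, the excess over all genes does not bear on housing. The share was no higher among the genes that passed than over the list. Counted per promoter, 10 of 21 promoters of the list and 15.1% of all 32851 held one. Hspd1 and Hspe1 lie head to head and share matched bases, and Hspa1a and Hspa1b are near-identical copies, so the list genes are not independent. A match is a description of the sequence and not a binding site. Hspa5, Pdia4, Sdf2l1, Calr and Creld2 also passed as higher and had no match. The promoters below were picked among those with a match. The promoters of 3 genes that were higher in EE are printed with the matches in capitals, at chr5:135887669-135887968 on the plus strand, chr17:34959189-34959488 on the minus strand and chr5:149636287-149636586 on the minus strand:
Hspb1: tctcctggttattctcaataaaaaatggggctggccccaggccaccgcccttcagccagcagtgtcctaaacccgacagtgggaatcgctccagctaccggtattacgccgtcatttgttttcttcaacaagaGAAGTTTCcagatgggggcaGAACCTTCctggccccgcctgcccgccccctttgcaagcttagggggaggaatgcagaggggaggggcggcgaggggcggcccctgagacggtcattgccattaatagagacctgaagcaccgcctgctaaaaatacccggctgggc
Hspa1b: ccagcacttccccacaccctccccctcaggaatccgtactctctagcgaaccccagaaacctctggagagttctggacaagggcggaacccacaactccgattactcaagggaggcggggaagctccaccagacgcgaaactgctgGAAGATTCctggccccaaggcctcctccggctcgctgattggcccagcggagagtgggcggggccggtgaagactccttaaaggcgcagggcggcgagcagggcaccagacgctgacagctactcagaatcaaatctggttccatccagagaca
Hsph1: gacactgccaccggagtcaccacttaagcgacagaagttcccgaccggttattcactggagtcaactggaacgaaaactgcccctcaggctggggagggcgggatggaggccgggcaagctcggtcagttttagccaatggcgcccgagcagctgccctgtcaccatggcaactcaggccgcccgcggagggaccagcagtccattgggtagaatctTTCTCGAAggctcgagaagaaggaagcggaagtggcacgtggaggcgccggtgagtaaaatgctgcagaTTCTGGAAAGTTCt

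Of 15 transcripts of the mitochondrial genome 5 were higher and 1 was lower, with a median of 0.12, beside 8.29% and 7.76% of all genes. Leaving out EE RES mice 3, 6 and 8 gave 3 higher and 2 lower. The summed share of the counts on the mitochondrial genome was 5.17 ± 0.861% (SD, n = 9) in EE RES and 5.79 ± 0.562% (SD, n = 7) in SH RES mice, lower in EE on average but not separated by a two-sided exact permutation test (p = 0.122, adjusted 0.243). The number higher was 2 or 3 on leaving out SH RES mouse 2, 4, 6 or 7 or EE RES mouse 3 or 4, and 8 without SH RES mouse 3. The protein-coding genes mt-Nd3 (0.49 ± 0.16), mt-Nd2 (0.37 ± 0.14) and mt-Co2 (0.31 ± 0.14) were higher, and the ribosomal gene mt-Rnr1 was lower (-0.32 ± 0.16). In the Wnt and TGF-beta lists, 5 of 33 genes were higher and 3 lower, with Tgfbr1, a receptor for TGF-beta, lower in every EE RES mouse than in any SH RES mouse (-0.29 ± 0.075) and its ligand Tgfb3 higher (0.40 ± 0.11). Of 18 genes of perineuronal nets 3 were higher and 1 lower, of 24 collagens 0 passed, and of 28 interferon and antigen presentation genes 3 were higher and 2 lower. Among 26 chromatin genes 3 were higher and 3 lower. When EE RES mice 3, 6 and 8 were left out, there were 3 higher and 3 lower genes of the Wnt and TGF-beta lists, 1 and 0 of perineuronal nets, 0 and 1 of collagens, 3 and 1 of interferon and antigen presentation, and 0 and 4 of chromatin. These counts, too, stand beside 8.29% of all genes higher and 7.76% lower. The histone deacetylase Hdac1 was lower in RES (-0.22 ± 0.056), control (-0.13 ± 0.051) and SUS mice (-0.13 ± 0.051).

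Gene classes differed in their share of the DEGs. Of the 353 higher DEGs 162 were protein coding and 136 were processed pseudogenes, copies of spliced genes whose reads may belong to the parent gene. Of 1048 processed pseudogenes tested, 215 were higher and 18 lower at an unadjusted edgeR p below 0.05, with a median log2 fold change of 0.22, and among 14499 protein-coding genes 1209 were higher and 1161 lower, with a median of 0.0059. The class TEC, transcripts that await experimental proof and mostly without splicing, went the other way, with 10 higher and 85 lower of 731 and a median of -0.13, as did 130 sense intronic transcripts with 0 higher and 14 lower. In control mice the medians of these 3 classes were 0.064, 0.078 and 0.065, and in SUS mice -0.034, -0.086 and -0.057. Without EE RES mice 3, 6 and 8, 310 processed pseudogenes were higher and 20 lower, with a median of 0.29. TEC transcripts then had 4 higher and 137 lower, with a median of -0.19, and sense intronic transcripts 0 higher and 26 lower.

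The share of read pairs in no annotated exon was 24.7 ± 2.38% (SD, n = 7) in SH RES and 22.9 ± 1.90% (SD, n = 9) in EE RES mice, a difference that a two-sided exact permutation test did not separate (p = 0.113, adjusted over 10 library measures 0.243). With this share as a covariate, 96 processed pseudogenes were higher and 12 lower, with a median of 0.14, and 29 TEC transcripts were higher and 22 lower, with a median of 0.010. Without SH RES mouse 1, which had the highest share, 153 pseudogenes were higher and 13 lower, with a median of 0.20, while TEC transcripts had 9 higher and 41 lower, with a median of -0.066, and sense intronic transcripts 3 higher and 4 lower. The part of RNA outside exons in these counts was not tested further. The 10 most abundant genes took 9.52 ± 0.716% (SD, n = 9) of the counts in EE RES and 10.5 ± 0.691% (SD, n = 7) in SH RES mice (exact permutation p = 0.0164, adjusted 0.164).

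The study built co-expression modules partly on these mice and named hub genes, so these lists are not independent of the samples. Of 14 hubs and DEGs it names, 4 were higher in EE RES mice and 0 lower: Alox12b (0.63 ± 0.19), Adamts14 (0.65 ± 0.23), Krt73 (0.64 ± 0.24) and Dnajc6 (0.14 ± 0.052), a co-chaperone of clathrin uncoating. Of all genes, 8.29% were higher and 7.76% lower. The 14 genes gave 1 higher and 0 lower without EE RES mice 3, 6 and 8, with their median falling from 0.19 to 0.042, 1 higher and 0 lower with the CA1 and CA3 scores as covariates, and 1 higher and 1 lower with the granule cell and oligodendrocyte scores. Alox12b ranged from 1.46 to 4.31 CPM in SH RES mice, with a median of 3.15, and from 3.07 to 5.95 CPM in EE RES mice, with a median of 4.41, and the ranges overlapped. Of 297 tested genes of the cyan module 111 were higher and 1 lower, with a median of 0.11, and of 449 genes of the yellow module 60 were higher and 1 lower, with a median of 0.088. In control mice the medians were 0.011 and -0.0018, and in SUS mice 0.021 and 0.087. The cyan module had 7 higher and 3 lower genes in control and 17 higher and 2 lower in SUS mice. The yellow module had 12 higher and 6 lower in control and 98 higher and 1 lower in SUS mice. The 14 named genes had 1 higher and 0 lower in control and 6 higher and 0 lower in SUS mice. Of all genes, 5.02% passed in either direction in control and 7.36% in SUS mice. When EE RES mice 3, 6 and 8 were left out, the cyan module had 37 higher and 2 lower genes, with a median of 0.061, and the yellow module 25 higher and 11 lower, with a median of 0.024. With the CA1 and CA3 scores as covariates the cyan module had 34 higher and 3 lower genes and the yellow module 29 higher and 8 lower. With the granule cell and oligodendrocyte scores the cyan module had 26 higher and 2 lower, with a median of 0.031. The yellow module then had 17 higher and 12 lower, with a median of 0.013.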

How the data were processed

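RNA-seq was performed on the ventral dentate gyrus of single male mice, 1 library per mouse and not pooled, from total RNA with strand kept. The authors deposited counts of read pairs per gene, 1 table per library, in the layout of STAR gene counts on GRCm38. The submitters' processing notes name STAR, Picard and mm10, and the study's methods name featureCounts. The reverse-strand counts were used, and for 1 EE control mouse sequenced in 2 runs, counts were added up. Rows that name no gene (unmapped, multimapping, no feature, ambiguous) were kept out of library sizes and tests, and the share in no feature was 24.7% of read pairs in SH RES and 22.9% in EE RES mice on average. Symbols and GRCm38 coordinates came from GENCODE M21 for 44671 of 45318 genes, and promoter and miRNA sequences from RefSeq (GRCm38.p6).

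Housing was compared in RES mice in 1 model over all 54 mice in 6 groups with edgeR 4.0.16 (TMM, filterByExpr, quasi-likelihood test, Benjamini-Hochberg adjustment over the genes tested), and DEGs were taken with limma 3.58.1 (voom, unadjusted p below 0.05, fold change above 1.3). A gene of a list was said to be higher or lower, or to pass, at an unadjusted edgeR p below 0.05, and values after ± are SE unless given as SD. CPM used library sizes scaled by the TMM factors, and log2 fold changes are EE minus SH. Alternatives were DESeq2 1.42.0 and other filters, scalings, samples and covariates. P-values of the model set a difference against the spread between mice within groups, pooled over the 6 groups. Housing was given by cage, and the cage of each mouse was not in the model. Mice that shared a cage were thus treated as independent.

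The genes named were the 10 of smallest p in each direction (predicted genes and pseudogenes passed over), up to 4 of smallest p per list, those the study names, and the 3 of smallest p per difference test. Mir219a-2, Prox1, Dcx, Bdnf and mt-Rnr1, and the list members Chgb, Hsph1, Hspd1, Hspe1, Hspa5, Pdia4, Sdf2l1, Calr, Creld2, Kcne2, Slc4a5 and Tmem72, lie outside this rule and were picked with their values in view. A few genes that the rule names are not reported here. The comparison, members and lists were chosen with earlier results of these data known.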

Additional observations from a re-analysis of the deposited data

Results flagged for a closer look

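Of 228 sets of values per group searched for a mouse far from the rest (Dixon's criterion at 95%), 24 (10.5%) held one, where chance gives about 1 in 20. SH RES mice 1 and 5 accounted for 6 each and SH RES mouse 3 for 4. No difference of the housing effect between RES and control or SUS mice passed the adjustment.

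SH RES mouse 1 had the highest Klhl32 (50.3 CPM) and Rfx3 (606 CPM) of its group and the lowest Sv2b (387 CPM), Hspa1a (4.80 CPM), Krt73 (1.115 CPM) and Socs2 (19.7 CPM). SH RES mouse 5 had, within its group, the lowest Npnt (38.4 CPM), Olig2 (6.12 CPM) and Gm9105 (0.141 CPM), the highest Sox11 (48.6 CPM) and Bdnf (97.1 CPM), and the highest score of immature granule neurons (1.14). SH RES mouse 3 had, within its group, the highest share of unmapped read pairs (18.8%), of ambiguous pairs (1.118%) and of forward-strand pairs (4.13%), and the highest mt-Co2 (125.6 CPM).

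SH RES mouse 4 had the highest SH RES values of Mag (55.5 CPM) and of the thalamus score (1.05), and SH RES mouse 7 the highest Ttr of its group (1.94 CPM). Among EE RES mice, mouse 9 had the highest Cdhr1 (17.8 CPM), mouse 8 the highest Hspa4l (228.8 CPM), mouse 2 the highest Gripap1 (94.1 CPM), mouse 6 the lowest Hspa1a (6.57 CPM) and mouse 4 the lowest Fosb (0.917 CPM). The causes were not tested.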

How the results depend on the processing

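Of all counts, that of the 50 genes past the adjusted threshold moved most. It was 24 with no filter on low counts, 18 with only the 16 RES mice, 152 with only the 35 defeated mice, 112 with sample quality weights, 245 by DESeq2 and 0 with the CA1 and CA3 scores as covariates, where 1617 genes had an unadjusted edgeR p below 0.05. Under 3 alternatives chosen after seeing the data it was 1 (EE RES mice 3, 6 and 8 left out), 1 (granule cell and oligodendrocyte scores as covariates) and 5 (share of pairs in no feature as a covariate). Leaving out 1 mouse at a time gave 0 to 292. The 593 DEGs became 1300 with no filter, 328 with the CA1 and CA3 scores and 332 with the granule cell and oligodendrocyte scores, and 446 to 766 on leaving out 1 mouse. Both difference tests gave 0 genes under every alternative run. The cause of these changes was not tested.

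With a replicate block, the count was 228 genes and 677 DEGs. The numbers do not pair the mice: same-numbered deviations correlated between -0.119 and 0.139 over 7 numbers, and no mouse matched its own number best.

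With the CA1 and CA3 scores as covariates the medians of the CA1 (-0.035) and interneuron (-0.0025) lists and of choroid genes (-0.60) turned, as did Ttr (-0.81). A list is drawn toward 0 when its own score is a covariate, as here for CA1. The same holds below for choroid and thalamus genes with the choroid plexus and thalamus scores, so these values test nothing. Choroid genes were also at -0.015 with the choroid plexus and thalamus scores, -0.043 without EE RES mice 3, 6 and 8 and -0.53 with the granule cell and oligodendrocyte scores, where Ttr was at -1.19. The thalamus median was -0.011 with the choroid plexus and thalamus scores together as covariates, -0.145 without EE RES mice 3, 6 and 8, and -0.063 to 0.40 on leaving out 1 mouse, and that of the 2 neutrophil genes -0.20 without EE RES mice 3, 6 and 8. Of 2690 values of the genes named, 138 under the 3 alternatives chosen after seeing the data and 325 under the others no longer passed the threshold, 18 newly passed it, and 2, both of Ttr, changed sign. Depth limited Inmt, Gm9105, Phf20-ps and Mir219a-2, at 28 read pairs or fewer per library.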
